A study of Mus musculus with 4 samples.

Results

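Chromatin accessibility in the embryonic mouse heart was examined at 10 genes of the blood programme: the transcription factors Klf1, Ikzf1, Gata2, Tal1, Lmo2, Runx1 and Nfe2, and the embryonic globins Hba-x, Hbb-y and Hbb-bh1. They are 10 of 21951 protein-coding genes, and they were taken by name. For each gene the peaks of both deposited lists were counted in the gene body and within 10 kb of a transcription start site (TSS). A promoter peak lay within 3 kb of a TSS of the gene, and a distal peak lay in the gene body or flank but over 3 kb from every TSS of the gene.

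The study compared E9.5 hearts of WT embryos and of embryos homozygous null for Smyd1 (Smyd1-KO), a methyltransferase of striated muscle, by ATAC-seq, which cuts DNA where chromatin is open. Smyd1 was disrupted in every cell of the embryo, the parents were Smyd1+/- mice, and no treatment was given. Each genotype had 2 libraries, each made from 4 pooled hearts and 40000 viable cells of the whole heart. The authors pooled the 2 libraries of a genotype before peaks were compared, so each peak has a single value and no replicate error, and no test over samples was possible.

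The lists hold 25745 peaks enriched at least 2-fold in Smyd1-KO hearts, called gained peaks here, and 106 peaks enriched in WT hearts. They carry no depth per library, and the part of depth in this imbalance was not tested. All members' peaks were 149 bp wide. The score of a peak is a coverage signal of the pooled libraries of 1 genotype and not a fold change. All scores of the gained peaks are multiples of 0.5, so they are not plain read counts, and any averaging or scaling by the authors is not given in the sources used here. A gene with no listed peak may be open in both genotypes or closed in both, since regions that did not pass the authors' cutoff are not used here. The labelled tissue could therefore not be checked from levels, and a change in the share of blood cells and a change of chromatin within them cannot be told apart. At Smyd1 itself 2 gained peaks and 0 WT-enriched peaks were listed, both over 3 kb from its TSSs. Whether they lie outside the deleted sequence was not tested.

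Red cells of the early embryo come from the yolk sac and fill the heart tube at this stage, and they carry embryonic globins. TAL1 and LMO2 form a complex on DNA with a GATA factor and the adaptor LDB1, and this complex opens erythroid enhancers. GATA2 acts in progenitors before GATA1 replaces it, and KLF1 and NF-E2 then drive the globin and haem genes. RUNX1 is needed for blood stem cells to bud from endothelium, and IKZF1 (Ikaros) directs lymphoid fate and helps to silence embryonic globin genes.

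The sequences that frame the findings are given first, read 5′ to 3′ on the strand of the gene. In the first set capitals mark CG dinucleotides. It shows that the gained peaks at Klf1 and Runx1 lay on CpG-rich sequence away from the CpG-poor 5′ ends of these genes, and it adds the CpG-rich Gata2 promoter and the CpG-poor Hbb-y promoter, which had no gained peak. The promoter windows are from RefSeq on GRCm38, the assembly that mm10 carries, without their untranslated bases.
Klf1 promoter, chr8:84901732-84901927, + strand: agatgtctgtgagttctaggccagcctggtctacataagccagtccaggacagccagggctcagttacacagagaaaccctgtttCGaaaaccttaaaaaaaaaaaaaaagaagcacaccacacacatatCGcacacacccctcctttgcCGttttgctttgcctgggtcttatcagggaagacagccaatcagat
Klf1 gained peak, chr8:84903085-84903233, + strand: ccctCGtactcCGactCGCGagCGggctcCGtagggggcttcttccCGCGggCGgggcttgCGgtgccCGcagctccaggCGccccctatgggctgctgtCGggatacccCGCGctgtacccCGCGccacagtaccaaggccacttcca
Runx1 distal promoter, chr16:92826150-92826324, − strand: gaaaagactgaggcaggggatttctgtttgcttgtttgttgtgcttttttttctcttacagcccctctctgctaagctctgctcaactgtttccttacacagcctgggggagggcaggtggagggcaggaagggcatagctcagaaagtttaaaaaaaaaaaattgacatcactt
Runx1 gained peak, chr16:92697371-92697519, − strand: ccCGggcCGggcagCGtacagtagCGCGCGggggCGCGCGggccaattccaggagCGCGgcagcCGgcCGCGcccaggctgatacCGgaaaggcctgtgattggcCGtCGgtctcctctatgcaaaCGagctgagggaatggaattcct
Gata2 promoter, chr6:88193641-88193890, + strand: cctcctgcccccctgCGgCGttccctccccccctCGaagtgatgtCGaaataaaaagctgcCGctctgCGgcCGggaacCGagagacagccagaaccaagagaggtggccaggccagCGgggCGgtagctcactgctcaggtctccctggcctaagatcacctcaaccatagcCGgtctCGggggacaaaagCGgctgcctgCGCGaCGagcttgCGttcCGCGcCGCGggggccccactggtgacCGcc
Hbb-y promoter, chr7:103853217-103853457, − strand: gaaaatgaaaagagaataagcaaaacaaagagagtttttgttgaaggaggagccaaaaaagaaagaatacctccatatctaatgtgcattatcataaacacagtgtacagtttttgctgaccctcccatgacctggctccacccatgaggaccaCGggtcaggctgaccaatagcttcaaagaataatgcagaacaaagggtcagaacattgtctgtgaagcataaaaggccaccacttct

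Gained peaks were in reach of 4 of the 10 genes, Klf1, Ikzf1, Runx1 and Hba-x, while 62.6% of all protein-coding genes had at least 1. Promoter peaks were found at 3 of 10 members, Klf1, Ikzf1 and Runx1, beside 51.2% of all genes. Distal peaks were found at 2 of 10, Klf1 and Hba-x, beside 31.3%. No member had a WT-enriched peak (0 of 10), and only 34 of all genes (0.155%) had one. The members thus carried 5 gained peaks in all, and Gata2, Tal1, Lmo2, Nfe2, Hbb-y and Hbb-bh1 carried none.

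Klf1, the erythroid Krüppel-like factor (chr8:84901928-84905291, + strand), was the only member with 2 gained peaks. The first had a score of 677.5, at percentile 89.7 of the list and percentile 81.7 of peaks within 3 kb of any TSS. It lay 1157 bp downstream of the single Klf1 TSS in a Klf1 coding exon. This exon stretch held 17 CG dinucleotides in 149 bases with 71.8% GC, and its ratio of observed to expected CpG was 0.898. The sequence 500 bp to either side of the Klf1 TSS had a ratio of only 0.078, at percentile 3.1 of genes. The second peak, at chr8:84893773-84893921, had a score of 653.5 and lay 8007 bp upstream of the Klf1 TSS. It covered a TSS of the neighbouring gene Gcdh, which encodes a mitochondrial dehydrogenase of lysine breakdown. It counts as distal to Klf1 by distance, but it sits at the promoter of another gene.

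Runx1 (chr16:92601466-92826149, − strand) spans 224684 bp and is transcribed from a distal and a proximal promoter, both of which are used in blood development. Its gained peak had a score of 539.5, at percentile 83.8 of the list and percentile 71.3 of peaks within 3 kb of any TSS. The peak lay 43 bp from the TSS at position 92697328, in the proximal promoter and in an intron of the longer transcripts. The centre of the peak was 128.704 kb from the 5′ end of the gene. The 4 annotated TSSs of the proximal region had CpG ratios from 0.657 to 0.867, and each had this peak within 3 kb. At the 3 distal TSSs the ratios were 0.310, 0.335 and 0.430, and the nearest gained peak was 57747 bp or more away. The printed sequences show the contrast, with 18 CG dinucleotides in the gained peak and 0 in the distal promoter window. Among all genes over 100 kb long, 87.8% had a gained peak in reach, with a median of 2 peaks, so the presence of a peak at Runx1 was the usual case for a gene of its length.

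Ikzf1 (chr11:11685003-11772926, + strand) had 1 gained peak, chr11:11685887-11686035, which covered the TSS at position 11685925. Its score of 185.5 was the lowest of the 5 members' peaks, at percentile 50.9 of the whole list and percentile 23.4 of peaks within 3 kb of any TSS. The sequence around this TSS had the highest CpG ratio of the members, 0.977. No further gained peak lay in the 87924 bp of the gene.

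Hba-x, the embryonic alpha-type globin (zeta; chr11:32276400-32278116, + strand), had no promoter peak. Its gained peak at chr11:32267517-32267665 had a score of 431 and lay 8735 bp upstream. This peak covered a TSS of Nprl3, a subunit of the GATOR1 complex whose introns are known to hold the enhancers of the alpha-globin genes. Thus both distal peaks assigned to the 10 genes lay at the TSS of a neighbour. When each peak was given only to the gene with the nearest TSS, 3 of 10 members kept a gained peak, beside 49.5% of all genes.

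**Figure D1:**
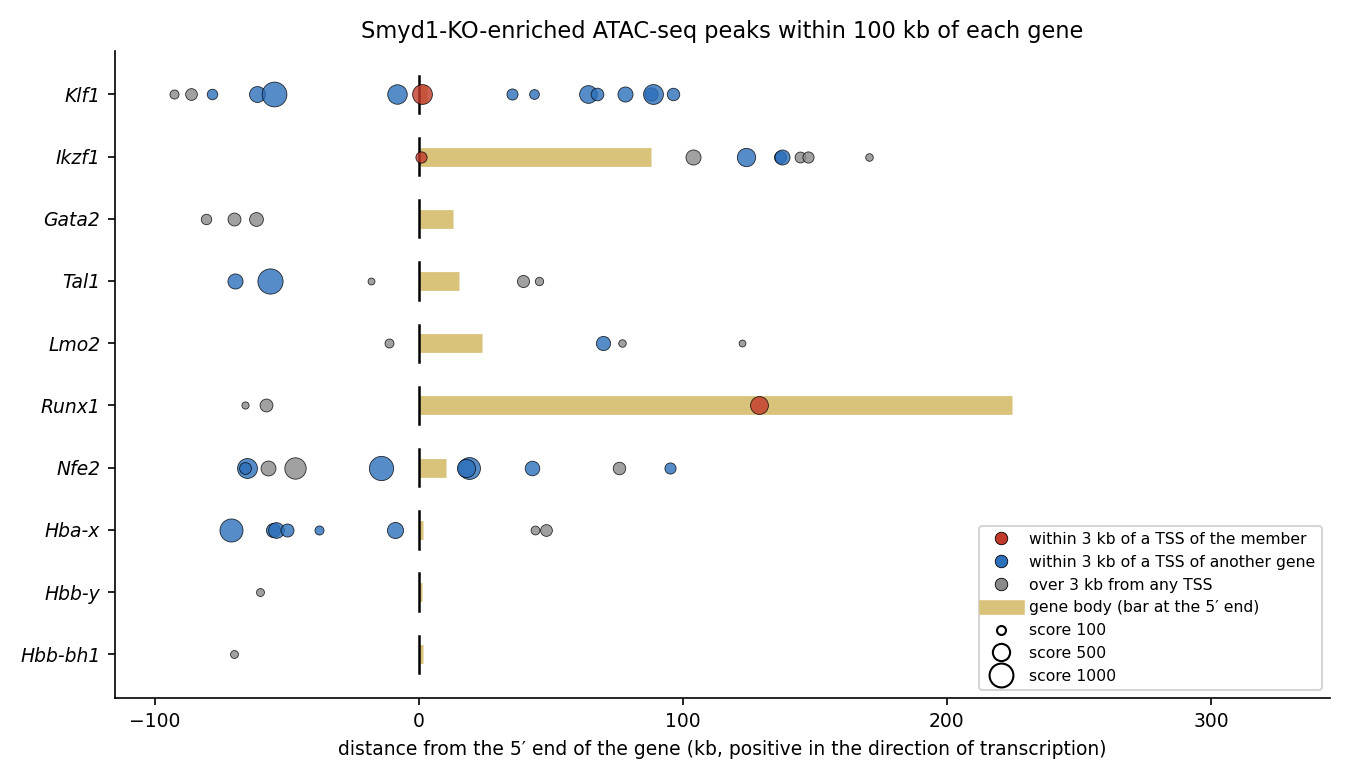
Gained peaks within 100 kb of each of the 10 genes, by distance of the peak centre from the 5′ end of the gene in kb; gold bars are gene bodies, the area of a point grows with the score, and colour gives the kind of site. Red points, within 3 kb of a TSS of the gene itself, appear only at Klf1, Ikzf1 and Runx1. Most points near Klf1, Nfe2 and Hba-x are blue, within 3 kb of a TSS of a neighbour.

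The 6 genes with no peak in reach differed in how far the nearest gained peak lay. Nfe2, the large subunit of the erythroid factor NF-E2 (chr15:103248212-103258403, − strand), had one 7832 bp beyond its 3′ end and 11085 bp from its nearest TSS. This peak scored 565.5 and lay 52 bp from the TSS of Hnrnpa1, a splicing regulator. At Lmo2 (chr2:103957986-103981878, + strand), the LIM-only adaptor, the nearest gained peak was intergenic, 11310 bp upstream, with a score of 99.5. At Tal1 (chr4:115056426-115071755, + strand), the basic helix-loop-helix factor that LMO2 binds, it was 17981 bp upstream in an exon of Stil, with a score of 40.0. That score was among the lowest of the list, at percentile 3.2.

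Gata2 (chr6:88193891-88207032, + strand) had its nearest gained peak 61581 bp upstream, with a score of 302.5. Hbb-y (chr7:103851749-103853216, − strand) and Hbb-bh1 (chr7:103841637-103843164, − strand), the embryonic beta-type globins, lie side by side in the beta-globin cluster and shared their nearest gained peak. It scored 67.5 and lay 59911 bp upstream of Hbb-y and 69963 bp upstream of Hbb-bh1, among olfactory receptor genes. No gained peak was listed between it and Hbb-y, the stretch that is known to hold the locus control region of the cluster.

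Widening the flank to 50 kb brought 7 of 10 members into contact with a gained peak, beside 79.1% of all genes. The 3 genes still without one were Gata2, Hbb-y and Hbb-bh1. Within 100 kb of the gene the members had from 1 gained peak (Hbb-y and Hbb-bh1) to 15 (Klf1), and the median of all protein-coding genes was 4, with quartiles of 2 and 7. Klf1, Nfe2 with 10, and Ikzf1 and Hba-x with 8 each were above the upper quartile. Tal1 had 5, Lmo2 had 4, and Gata2 and Runx1 had 3 each.

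Counted once each, 57 gained peaks lay within 100 kb of the 10 genes. Of these, 3 were within 3 kb of a TSS of the member itself, 31 were within 3 kb of a TSS of another gene, and 23 were over 3 kb from any TSS. The highest of these scores were at TSSs of neighbouring genes, and they are given here from the top. Stil, a centriole protein next to Tal1, had a score of 1125 at 82 bp from its TSS. Calr, the chaperone calreticulin near Klf1, had a score of 1084.5, and Copz1, a coatomer subunit 14276 bp from the nearest Nfe2 TSS, had 1035.5. The gene for the spliceosomal protein Snrnp25, upstream of Hba-x, had a score of 931.5 at 22 bp from its TSS.

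The scores followed the kind of site in the whole list as well as near these genes. The median was 365.5 over the 13986 gained peaks within 3 kb of any TSS and 87 over the other 11759. Near the 10 genes the 31 peaks at other genes' TSSs had a median of 371.5, with a range of 103 to 1125. The 23 peaks away from TSSs had a median of 170, with a range of 38 to 793.5. The members' own promoter peaks, with scores of 185.5, 539.5 and 677.5, thus included 2 above the median of promoter peaks and 1 below it. With no replicate value, the error of these scores is unknown.

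**Figure D2:**
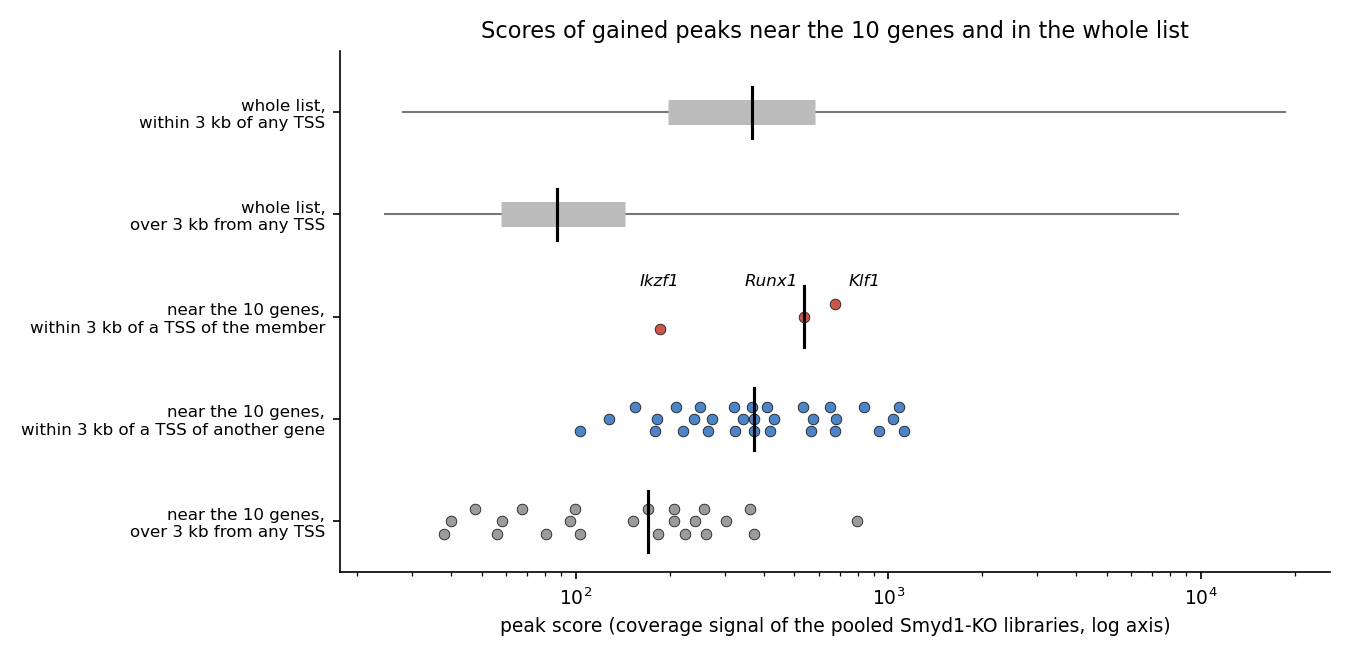
Scores of gained peaks on a log axis, as a coverage signal of the pooled Smyd1-KO libraries. In the upper rows the box runs from the lower to the upper quartile of the whole list, the thin line gives its range and the black bar its median; in the lower rows each point is a peak within 100 kb of one of the 10 genes and the black bar is the median, which is 371.5 at TSSs of other genes and 170 away from TSSs.

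Over the whole genome the share of genes with a gained promoter peak rose with CpG content. Each gene was placed by the highest CpG ratio among its TSSs. The share with a promoter peak was 5.35% of genes under 0.25, 27% from 0.25 to 0.5, 68.2% from 0.5 to 0.75 and 81.2% at 0.75 or more. Among the members, 4 were in the lowest class: Klf1 at 0.078, Hbb-y at 0.068, Hbb-bh1 at 0.108 and Hba-x at 0.158. Klf1 was the only one of them with a promoter peak, and that peak lay in the CpG-rich exon rather than on the TSS. Nfe2, at 0.444, was in the second class and had none.

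The other 5 members were in the highest class, and only 2 of them had a promoter peak, Ikzf1 and Runx1. Gata2 at 0.767, Tal1 at 0.804 and Lmo2 at 0.905 had none, although 81.2% of genes with such promoters did. The Gata2 window printed above holds 22 CG dinucleotides in 250 bases, while the Hbb-y window holds 1 in 241. Repeated sequence around the TSSs was counted as well. At most 8.94% of the 32-base words within 250 bp of any member's TSS recurred elsewhere, at Nfe2, and the share was 0% at every TSS of Gata2, Tal1 and the 3 embryonic globins. Over the gene with its 10 kb flanks the share was higher, from 2.23% at Ikzf1 to 10.29% at Hbb-y, 12.24% at Nfe2 and 17.48% at Hba-x, and its part in the missing peaks was not tested. None of the 5 members' peaks held a recurring word.

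**Figure D3:**
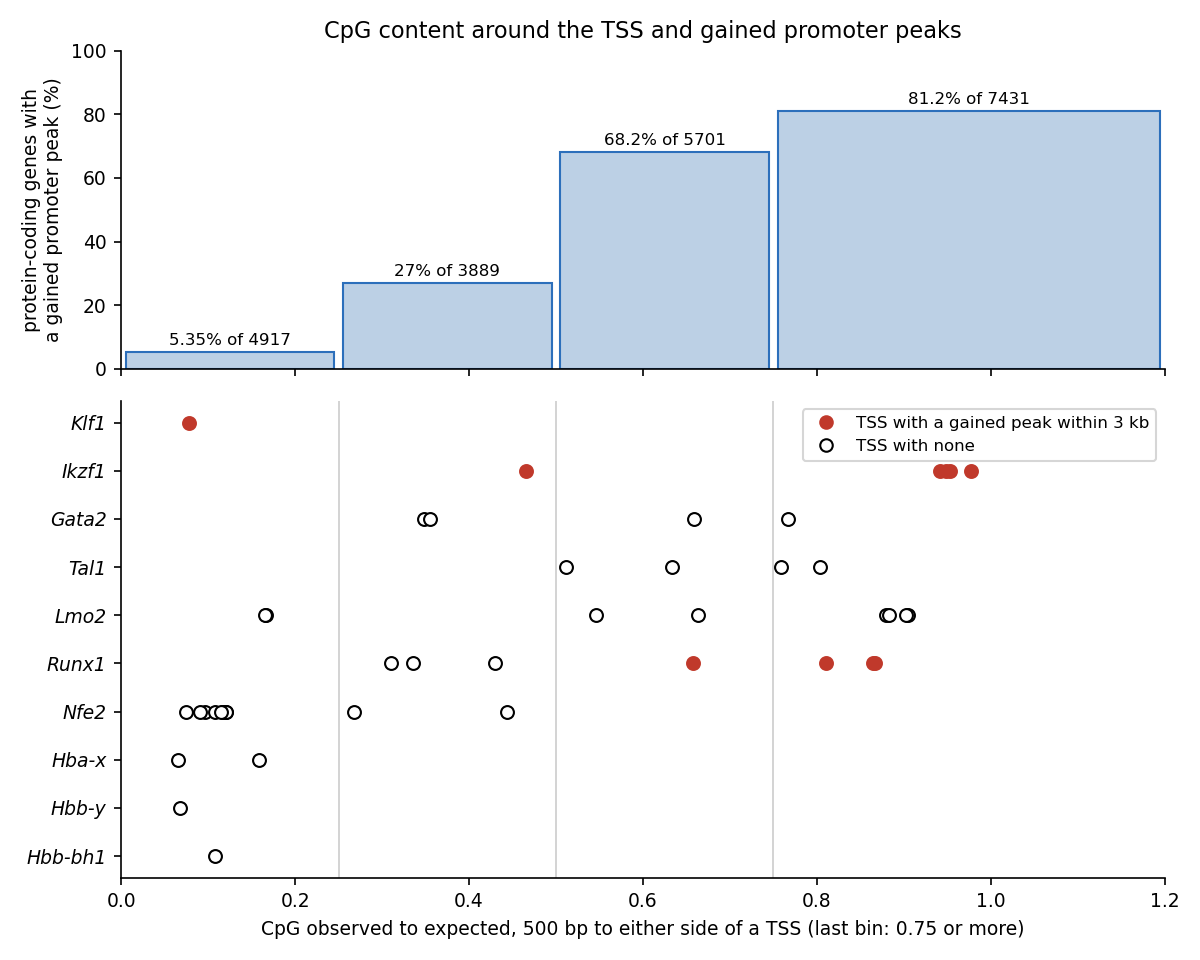
Upper panel, share of protein-coding genes with a gained promoter peak in percent, with genes placed by the highest ratio of observed to expected CpG among their TSSs. Lower panel, the ratio at every TSS of the 10 genes, filled where a gained peak lay within 3 kb; the open circles of Gata2, Tal1 and Lmo2 reach into the class in which 81.2% of genes have a promoter peak.

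Short consensus strings were searched on both strands of the members' peaks, overlaps between families included. All 5 peaks lay within 3 kb of a TSS of some gene, so each count is set beside the share of the 13986 gained peaks near TSSs. Counts in the 11 RefSeq promoter windows of 300 bases, found for 7 of the 10 genes, are set beside the share of all such windows. The GATA strings AGATAA and TGATAA were in 0 of the 5 peaks (5.64% of gained peaks near TSSs) and in 4 of 11 windows (18.6% of all windows). The KLF string CCNCNCCC was in 2 of 5 peaks (49.6%), those at the Klf1 exon and the Runx1 proximal promoter, and in 7 of 11 windows (49.5%). The E-box CAGNTG was in 1 of 5 peaks (25%) and 4 of 11 windows (51.4%). The ETS string AGGAAG was in 1 of 5 peaks (16.2%) and 2 of 11 windows (35.4%). The RUNX string TGTGGT was in 0 of 5 peaks (5.61%) and 2 of 11 windows (16.8%). The NF-E2 and AP-1 core TGANTCA was in 0 of 5 peaks (2.64%) and 0 of 11 windows (7.81%), and the CTCF core GNGGNGGCA in 0 of 5 peaks (6.31%) and 0 of 11 windows (8.96%). A match is a run of letters and does not show that a factor binds.

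The same strings were searched in all gained peaks within 100 kb of the 10 genes, those in the 10 kb reach included. GATA strings were in 4 of the 23 peaks over 3 kb from any TSS, in 0 of the 31 at TSSs of other genes and in 22.6% of the whole list's peaks over 3 kb from a TSS. Of the same 23 peaks, 9 held the KLF string, beside 20.6% of such peaks in the whole list, 10 the E-box, beside 39%, and 5 the ETS string, beside 18.8%. The NF-E2 and AP-1 core was in 3, beside 5.83%, and the RUNX string and the CTCF core were in 1 each, beside 10.4% and 3.98%. The 4 peaks with a GATA string lay near Tal1, Lmo2, Runx1 and the beta-globin cluster, and they are printed here because they are the peaks near members that hold such a string. Capitals mark GATA, KLF, RUNX and ETS strings, on the strand of the gene.
Tal1, 36352 bp from its nearest TSS, chr4:115095860-115096008, + strand: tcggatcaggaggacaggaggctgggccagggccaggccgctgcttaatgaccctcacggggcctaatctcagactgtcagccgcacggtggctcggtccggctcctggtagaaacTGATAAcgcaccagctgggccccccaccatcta
Lmo2, 11310 bp upstream, chr2:103946528-103946676, + strand: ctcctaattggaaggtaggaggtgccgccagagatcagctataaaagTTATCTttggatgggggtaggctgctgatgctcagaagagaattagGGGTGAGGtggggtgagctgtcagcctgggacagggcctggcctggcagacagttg
Runx1, 57747 bp upstream, chr16:92883896-92884044, − strand: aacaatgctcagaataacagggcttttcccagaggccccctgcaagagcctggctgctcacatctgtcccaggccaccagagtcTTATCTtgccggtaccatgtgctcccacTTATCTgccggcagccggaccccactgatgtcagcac
Hbb-y, 59911 bp upstream, chr7:103913127-103913275, − strand: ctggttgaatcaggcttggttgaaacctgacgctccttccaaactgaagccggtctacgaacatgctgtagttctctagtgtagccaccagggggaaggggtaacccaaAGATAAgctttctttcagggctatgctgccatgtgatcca

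The Tal1 peak scored 223 and lay beyond the 3′ end of the gene, 4928 bp from the TSS of Pdzk1ip1, in a region in which an erythroid enhancer of Tal1 is known. It held an E-box besides the GATA string. The Lmo2 peak held GATA, KLF and E-box strings with a score of 99.5, and the Runx1 peak held 2 GATA strings and an E-box with a score of 256.5. The beta-globin peak held GATA and NF-E2 strings with a score of 67.5. The 3 gained peaks upstream of Gata2, at 61581, 69723 and 80519 bp, scored 302.5, 260.5 and 153 and held no GATA string. They lie between Gata2 and Rpn1, where a distant enhancer of Gata2 is also known. Whether any of these peaks covers a known enhancer was not tested.

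Near Hba-x, 6 of the 8 gained peaks within 100 kb were at TSSs of other genes, among them 37728 bp upstream a peak with a score of 103 in an Nprl3 intron, 488 bp from an annotated Nprl3 TSS. The other alpha-type and beta-type globins had 0 of 7 genes with a gained peak in reach, beside 62.6% of all protein-coding genes. Recurring words were not counted around these 7 genes, and the part of repeated sequence in their missing peaks was not tested. With the members, this makes Hba-x the only globin gene examined that had a peak within 10 kb, and its peak was that of Nprl3.

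Other genes of the blood programme were counted for comparison. Of 6 partners of TAL1 and LMO2, 4 had a gained promoter peak (66.7%). The highest was at Tcf3, an E protein that pairs with TAL1, with a score of 612, and Ldb1 had 499.5. Of 16 other blood regulators, 11 had a gained peak in reach and 9 a promoter peak (56.2%), led by Zfpm1, the GATA cofactor FOG-1, with a score of 1206. Gata1 had none. Of 15 erythroid receptor, membrane and haem genes matched in the annotation, 8 had a gained peak and 6 a promoter peak (40%), led by the transferrin receptor Tfrc with a score of 823.5. These shares stood above and below the 51.2% of all genes, and the lists are short.

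Lists of cell-type markers were counted the same way. Over all protein-coding genes 62.6% had any gained peak and 51.2% a promoter peak, and the lists are short. Of 8 erythroid markers, 2 had a gained peak and 1 a promoter peak, which were those of Klf1 and Hba-x. The erythroid list holds the members Klf1, Hba-x, Hbb-y and Hbb-bh1, so its count partly repeats that of the members. Of 6 macrophage markers, 3 had a gained peak and 0 a promoter peak, and of 5 megakaryocyte markers, 2 and 1. Of 8 endothelial and endocardial markers, 5 had a gained peak and 3 a promoter peak. Of 8 cardiomyocyte markers, 8 had a gained peak and 7 a promoter peak. Among transcription factors, promoter peaks were found at 10 of 16 endothelial and endocardial factors and at 4 of 6 cardiac GATA, NK2 and HAND factors. In the list of cardiac factors the promoter peaks were those of Gata4, Gata5, Gata6 and Hand1, with top scores of 425, 886.5, 746.5 and 243.5. Nkx2-5 and Hand2 of that list had no promoter peak, and neither had Gata1 or Gata2. No gene of these lists had a WT-enriched peak in reach. The part of cell composition in these counts was not tested.

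**Figure D4:**
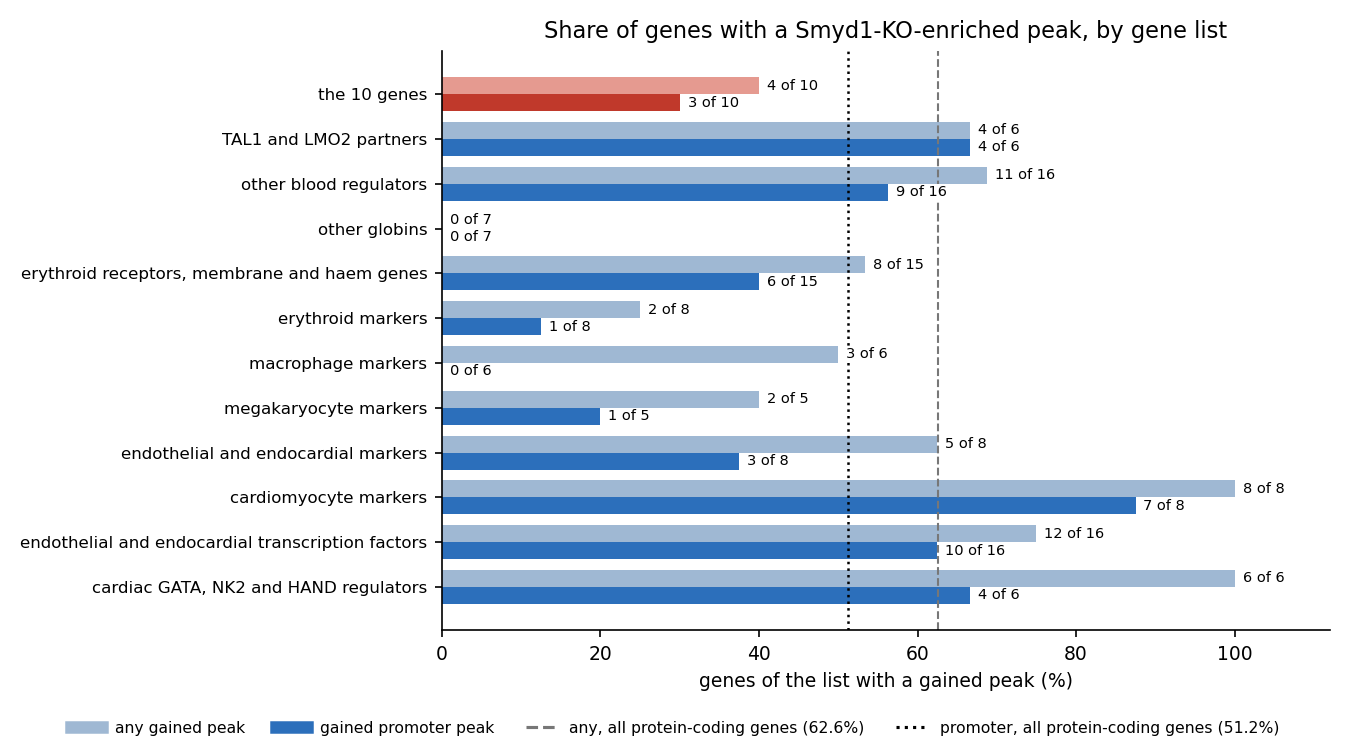
Share of genes with any gained peak in the gene body or within 10 kb of a TSS (pale bars) and with a promoter peak within 3 kb of a TSS (dark bars), in percent, for the 10 genes in red and for the lists compared in blue, with the counts beside each bar. The lines give all protein-coding genes, 62.6% with any peak and 51.2% with a promoter peak; the 10 genes are below both.

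Gene length moved with the counts too. Of the members under 5 kb, Klf1, Hba-x, Hbb-y and Hbb-bh1, 2 of 4 had a gained peak in reach, beside 41.5% of genes of that length. From 5 to 20 kb, Gata2, Tal1 and Nfe2 gave 0 of 3, beside 55.9%. From 20 to 100 kb, 1 of 2 had a peak, Ikzf1 but not Lmo2, beside 72.4%. Each class holds few members, and the part of gene length in the missing peaks was not tested.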

How the data were processed

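ATAC-seq was performed by the authors on 4 heart libraries, 2 per genotype. Reads were aligned to mm10 with BWA-MEM, and peaks were called with HOMER 4.10.3 on combined libraries and annotated with ChIPseeker 1.20.0. The treatment of duplicate and multi-mapping reads and of the Tn5 offset is not given in the sources used here. The deposited lists give a position and a coverage signal (the score) for each peak. The scores of the Smyd1-KO list are multiples of 0.5 and those of the WT list have other steps, so either may have been averaged or scaled, and scores were not compared between lists. Depth per library and the fold change of a peak were not used here, since the lists do not carry them.

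Positions were converted to 1-based coordinates and compared with GENCODE M21 by scripts in Python 3.11.15 with numpy 2.4.6, which were first tested on made-up data with known answers. Every peak fell inside the chromosomes of the GRCm38 genome used. Distances run from the edge of a peak to a TSS. Observed to expected CpG was taken 500 bp to either side of each TSS. Words of 32 bases from the peaks and TSS windows were called recurring if either strand of an assembled chromosome held a further copy. All 10 members are named with every peak in reach, and a gene of another list is named where it had the highest score or shares a locus with a member. The genes of the cardiac list, Ldb1 and Gata1 were named after their values were seen. The members and lists were chosen with earlier results of these data known. RefSeq promoter windows were matched by symbol for 7 of 10 members. The peak lists pool both libraries of a genotype and carry no value per library, so counts are descriptions beside the share over all protein-coding genes.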

Additional observations from a re-analysis of the deposited data

How the results depend on the processing

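The counts were repeated with promoter distances of 1 kb and 10 kb, a 50 kb flank, TSSs of protein-coding transcripts only, peaks at or above the median score, each peak given only to the nearest gene, and peaks with at most 10 percent recurring words. With a promoter distance of 1 kb the Klf1 exon peak became distal, the median promoter score was 362.5 and the median distal score 653.5, and 2 of 10 members had a promoter peak beside 48.1% of all genes. With a promoter distance of 10 kb, 0 members had a distal peak beside 11.6% of all genes. With a 50 kb flank, 7 members had a gained peak beside 79.1% of all genes, 5 had a distal peak beside 71.1%, the number of peaks rose to 20 and the median distal score was 223. With each peak given only to the nearest gene, 0 members had a distal peak beside 13.7% of all genes, and 3 peaks were left. With peaks at or above the median score, 4 members still had a gained peak and 3 a promoter peak. The shares of all genes fell from 62.6% to 51.5% and from 51.2% to 45.4%. At this setting 2 members still had a distal peak, while the share of all genes fell from 31.3% to 15.9%. The other values at the members were within 1.5 times those reported, and no member had a WT-enriched peak in any of the 7 alternatives. No median distal score could be given where no distal peak was left. No paired analysis was possible because the lists pool both libraries of a genotype, and leaving out a library was impossible for the same reason. The lists hold only peaks past the authors' cutoff, so a missing peak shows neither closed nor unchanged chromatin.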
